A study of Homo sapiens with 8 samples.

Results

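Ketogenic feeding in the absence of a drug was examined in 4 of the 8 libraries of this study: the vehicle libraries, of which 2 came from mice on a ketogenic diet and 2 from mice on a standard diet. They were chosen by their labels as the columns without gilteritinib, and each ketogenic library was set against the standard library of the same tissue label, bone marrow or liver. The mice carried MOLM14, a human acute myeloid leukaemia line whose stated genotype is FLT3-ITD with a rearranged MLL gene (MLLr), in a model the labels call CLDX. Feeding lasted 3 weeks, and gilteritinib, an inhibitor of the FLT3 kinase, or its vehicle was given for 1 week. All 8 libraries share the line and genotype, so no library comes from another leukaemia, and each combination of tissue label, drug and diet had 1 library. The groups were ketogenic diet with vehicle and standard diet with vehicle, with the 4 libraries of ketogenic or standard diet under gilteritinib used for comparison. For bone marrow, human CD45-positive cells were sorted before extraction, whereas the other libraries were labelled as pieces of whole liver holding mouse and MOLM14 cells. The sources used here do not give mouse strain, sex, age or the number of mice behind a library.

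A ketogenic diet is rich in fat and poor in carbohydrate, so that the body burns fatty acids and the liver releases ketone bodies. Long-chain fatty acids reach the mitochondrial matrix as carnitine esters, made by CPT1A and carried inward by SLC25A20, and are then shortened by acyl-CoA dehydrogenases, hydratases and thiolases. Fatty acids also bind the nuclear receptors of the PPAR family, whose known targets include these genes, PDK4 and PLIN2. SCD serves the building of lipids, since it places a double bond in saturated fatty acids made from glucose or taken from food. Leukaemic myeloid cells are known to use both fatty acid oxidation and glucose.

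The 2 ketogenic vehicle libraries held 16290265 counts in marrow and 16542212 in the liver label, against 33611830 and 13605936 in the standard vehicle libraries. Transcripts of the mitochondrial genome made up 11.8% of counts in the ketogenic marrow library and 9.28% in the standard one, and 12.2% and 13.3% in the ketogenic and standard libraries of the liver label. The tissue label coincides with a code in the library titles, so tissue and any batch that this code marks cannot be told apart, but each code holds both diets. Human hepatocyte transcripts were nearly absent: 15 of 21 hepatocyte genes, among them albumin (ALB) and transthyretin (TTR), had a count of 0 in all 4 vehicle libraries. Summed hepatocyte markers reached 1.88 and 2.93 CPM (counts scaled to library size) in the ketogenic libraries of marrow and the liver label, against 2.28 and 2.04 CPM in the standard libraries. Leukaemia markers (LYZ, CD33, FLT3, MPO and others) summed to 3255 and 3343 CPM with ketogenic diet, against 3104 and 3073 CPM with standard diet, in marrow and the liver label. LYZ, a general myeloid gene, alone gave 1775 and 1967 CPM with ketogenic diet, against 1555 and 1677 CPM with standard diet. The hepatocytes of these livers would be mouse cells, so these human genes do not check the tissue label. In the libraries labelled liver, called the liver label here, the summed leukaemia markers were at the marrow level. Single members went both ways. LYZ was higher there than in marrow with either diet. FLT3 was lower, at 396 and 358 CPM with ketogenic and standard diet, against 469 and 547 CPM in marrow. Macrophage markers summed to 12.85 and 9.997 CPM with ketogenic diet, against 12.99 and 13.55 CPM with standard diet. Of these 11 markers, 5 were at 0 in all 4 libraries, among them VSIG4, TIMD4, C1QB and C1QC. ADGRE1 gave the most counts, and no member exceeded 9.44 CPM. CD163 was detected, at 1.88 and 2.39 CPM with ketogenic diet against 3.14 and 3.86 CPM with standard diet. In bulk RNA, fewer cells of a type and less RNA per cell cannot be told apart.

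Diet changed few genes, and the 3 with the lowest adjusted p, SCD, CPT1A and SLC25A20, all handle fatty acids. Of 13784 genes tested with edgeR's quasi-likelihood test, with tissue label as a block, 36 (0.261%) passed a Benjamini-Hochberg adjusted p of 0.05. Of these, 24 (0.174%) were higher and 12 (0.0871%) were lower with ketogenic diet, and 648 genes had an unadjusted p under 0.05. The median log2 fold change over all genes tested was 0.00. Each p-value measures only the spread between these libraries, which may be technical, and for 90% of genes the fit used the spread shared across genes alone. The count was 6 with DESeq2 (SCD, SLC25A20, ACAA2, ACADVL, FCGRT and IMPA2), 4 with the tissue label left out of the fit, 13 with no filter on low counts, and 20 with all 8 libraries in the fit. With 1 vehicle library left out of that last fit, it was 10 without the ketogenic and 9 without the standard marrow library, and 19 without either library of the liver label.

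SCD, the stearoyl-CoA desaturase, had the lowest adjusted p of all genes tested. It stood at 22.9 CPM in the ketogenic marrow library and 24.2 CPM in the ketogenic library of the liver label, against 82.2 and 56.8 CPM in the standard libraries. Both ketogenic libraries lay far below both standard libraries, as a choice by the diet test favours, and the ketogenic pair was nearly level. The log2 fold change was -1.55 ± 0.12 (SE, 2 libraries per diet; edgeR, adjusted p = 2.49e-32). SCD lies on chromosome 10 (GRCh38, 100347124 to 100364834, plus strand), and it kept its call in 15 of 15 alternative settings, with values between -1.84 and -1.23. Among 16 tested genes of fatty acid synthesis and desaturation, none was called higher and only SCD was called lower, and the median was -0.14. ELOVL6, which lengthens palmitate, had a log2 fold change of -0.69 that did not pass (adjusted p = 0.61 in edgeR). FASN, the fatty acid synthase, measured 101 and 76.2 CPM with ketogenic diet against 98.6 and 100.5 CPM with standard diet, in marrow and the liver label. Its log2 fold change of -0.18 did not pass, and it was 0.04 without either vehicle library of the liver label. SREBF1, the transcription factor that drives lipid synthesis, stood at 38.3 and 40.4 CPM with ketogenic diet against 47.8 and 47.0 CPM with standard diet, a log2 fold change of -0.27 that did not pass.

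Of 24 tested genes of mitochondrial fatty acid oxidation, 5 were called higher and none lower, where 0.174% of all genes tested were called higher. The list's median log2 fold change was 0.18, against 0.00 over all genes. This list, like the others, was chosen with earlier results of these data known. The 5 genes span the route from entry to thiolysis. CPT1A, which makes the carnitine esters at the outer membrane, measured 68.9 and 55.1 CPM with ketogenic diet against 25.2 and 37.0 CPM with standard diet, in marrow and the liver label. The gap was wider in marrow. The log2 fold change was 1.03 ± 0.12 (SE; edgeR, adjusted p = 8.01e-14). Single-pair log2 ratios were 1.45 in marrow and 0.57 in the liver label, farther apart than this SE conveys. SLC25A20, the carrier of the inner membrane, measured 54.0 and 48.7 CPM with ketogenic diet against 25.9 and 24.4 CPM with standard diet. Its pairs were alike in both labels, with a log2 fold change of 1.03 ± 0.12 (SE; edgeR, adjusted p = 4.47e-13). ACADVL, the dehydrogenase for very long chains, stood at 273 and 252 CPM with ketogenic diet against 181 and 184 CPM with standard diet (log2 fold change 0.52 ± 0.09 SE; edgeR, adjusted p = 5.13e-05). ECH1, an isomerase for unsaturated chains, stood at 184 and 193 CPM with ketogenic diet against 125 and 147 CPM with standard diet (log2 fold change 0.47 ± 0.10 SE; edgeR, adjusted p = 0.00106). ACAA2, the thiolase that releases acetyl-CoA, stood at 75.4 and 73.8 CPM with ketogenic diet against 44.2 and 44.1 CPM with standard diet (log2 fold change 0.75 ± 0.11 SE; edgeR, adjusted p = 6.55e-08). Each of these genes was higher in both ketogenic libraries than in both standard libraries, which their choice by the diet test favours. The share of all tested genes that separate in this way was not counted.

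**Figure D1:**
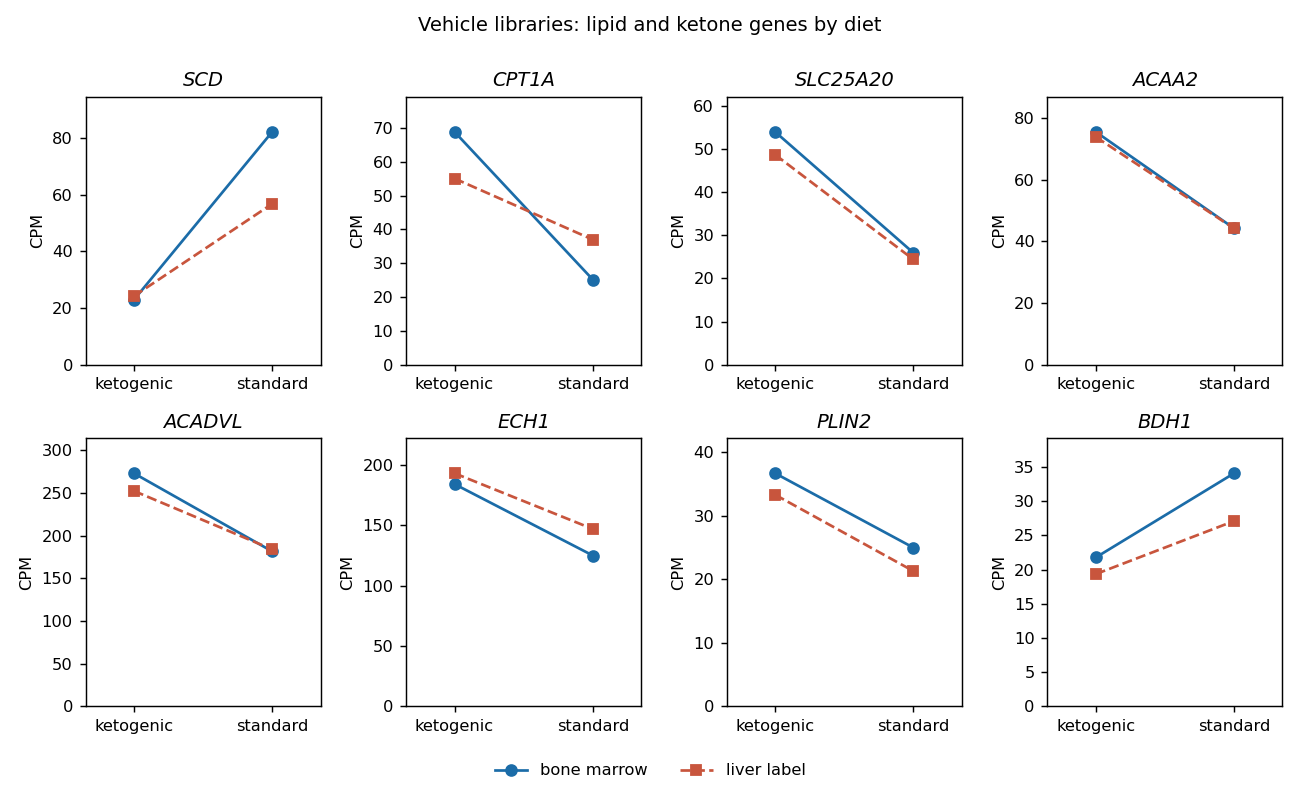
Abundance in CPM (vertical axes, from 0) of 8 lipid and ketone genes in the 4 vehicle libraries, ketogenic left of standard; each point is 1 library, circles mark bone marrow and squares the liver label, and lines join libraries of a label. SCD was at 22.9 and 24.2 CPM in the ketogenic libraries, against 82.2 and 56.8 CPM in the standard ones, and the CPT1A lines cross, with a wider gap in marrow.

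The remaining 19 members did not pass. CPT2, which removes carnitine inside the matrix, measured 33.7 and 31.2 CPM with ketogenic diet against 33.7 and 30.7 CPM with standard diet. ACADM, the medium-chain dehydrogenase, had a log2 fold change of -0.01, and the acyl-CoA synthetases ACSL1 and ACSL4 had -0.14 and -0.16. HADHA and HADHB, subunits of the trifunctional protein, had 0.17 and 0.19. The electron carriers ETFA, ETFB and ETFDH, which pass electrons from dehydrogenases to the respiratory chain, had 0.26, 0.35 and 0.42, with adjusted p-values of 0.61, 0.50 and 0.25 in edgeR. In the fit of all 8 libraries, CPT1A had a log2 fold change of 1.04 with an adjusted p of 0.473, and DESeq2 did not call it either, at 1.01. There, without the ketogenic or the standard marrow vehicle library, CPT1A stood at 0.57 (adjusted p = 0.320 and 0.327 in edgeR), and ACADVL and ECH1 also lost their calls, while SLC25A20 and ACAA2 kept theirs.

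PDK4, a kinase that shuts off pyruvate dehydrogenase and so spares glucose carbon, was nearly silent with standard diet. It had 36 counts in the ketogenic marrow library and 17 in the ketogenic library of the liver label, against 1 and 2 counts in the standard libraries. Single-library ratios were 75.9 in marrow (95% counting interval 12.8 to 3080) and 6.99 in the liver label (1.66 to 62.3). PDK4 entered the test only through its ketogenic libraries, so a gene so chosen had to differ, and its log2 fold change of 4.72 (edgeR, adjusted p = 9.77e-08) rests on very few counts. Without either marrow vehicle library the value was 2.75 to 2.76 and was no longer called. Other kinases of the same enzyme, PDK1, PDK2 and PDK3, had log2 fold changes of 0.14, 0.14 and 0.16 and did not pass. PDK4 was the only called gene among 34 of pyruvate entry and the tricarboxylic acid cycle (median 0.02) and among 22 genes restrained by insulin through FOXO factors (median 0.04).

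Of 17 tested PPAR targets, 7 were called higher and none lower, with a median of 0.32, where 0.174% of all genes tested were called higher. They were the 5 oxidation genes, PDK4 and PLIN2, so this count overlaps the one above. It also includes PDK4, which entered the test only through its ketogenic libraries. PLIN2, which coats lipid droplets, measured 36.7 and 33.3 CPM with ketogenic diet against 25.0 and 21.3 CPM with standard diet (log2 fold change 0.59 ± 0.13 SE; edgeR, adjusted p = 0.00320). It was no longer called without any 1 of the 4 vehicle libraries in the fit of all 8, at 0.56 to 0.65. Among PPAR targets under the threshold, CAT, the peroxisomal catalase, had 0.40 (adjusted p = 0.11 in edgeR), the uncoupling protein UCP2 had 0.07 and the fatty acid binding protein FABP5 had 0.14. ANGPTL4, a lipase inhibitor, was too low to test, with 4 and 0 counts with ketogenic diet in marrow and the liver label, against 0 and 2 with standard diet. None of 14 peroxisomal genes of fatty acid oxidation was called, and their median was 0.06.

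Among 22 genes of lipid uptake and storage, PLIN2 was called higher and GPAT3 lower, with a median of -0.01. GPAT3, an acyltransferase that starts triglyceride synthesis, measured 11.97 and 12.6 CPM with ketogenic diet against 19.1 and 18.8 CPM with standard diet (log2 fold change -0.63 ± 0.15 SE; edgeR, adjusted p = 0.0153). The fatty acid receptor CD36 measured 32.0 and 28.6 CPM with ketogenic diet against 32.0 and 34.7 CPM with standard diet, a log2 fold change of -0.14 that did not pass. Of 13 genes of ketone bodies and monocarboxylate transport, BDH1 alone was called, and it was lower. BDH1, which interconverts 3-hydroxybutyrate and acetoacetate, measured 21.8 and 19.3 CPM with ketogenic diet against 34.1 and 27.1 CPM with standard diet (log2 fold change -0.58 ± 0.13 SE; edgeR, adjusted p = 0.0106). OXCT1, the enzyme that activates acetoacetate for use as fuel, measured 67.4 and 62.6 CPM with ketogenic diet against 85.3 and 73.3 CPM with standard diet, with a log2 fold change of -0.29 that did not pass (adjusted p = 0.609 in edgeR). The transporter SLC16A1, through which ketone bodies enter cells, had 0.17 and did not pass. In the fit of all 8 libraries GPAT3 was not called (adjusted p = 0.0578 in edgeR), whereas BDH1 was (adjusted p = 0.0398 in edgeR) and lost its call there without any 1 vehicle library.

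The promoters of 3 called genes are shown because these genes represent the fall, the rise in lipid genes and the rise in amino acid genes described below. They run from 250 bases before to 50 bases after the RefSeq start, 5′ to 3′ on the gene's strand (RefSeq, GRCh38.p14), and capitals mark searched motifs.
SCD chr10:100346983-100347282, plus strand: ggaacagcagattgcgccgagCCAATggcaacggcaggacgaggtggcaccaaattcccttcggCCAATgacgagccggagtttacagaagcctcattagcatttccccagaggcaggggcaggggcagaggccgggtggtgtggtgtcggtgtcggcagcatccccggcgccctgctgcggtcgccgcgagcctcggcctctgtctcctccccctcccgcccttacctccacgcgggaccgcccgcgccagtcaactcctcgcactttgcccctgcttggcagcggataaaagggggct
CPT1A chr11:68844228-68844527, minus strand: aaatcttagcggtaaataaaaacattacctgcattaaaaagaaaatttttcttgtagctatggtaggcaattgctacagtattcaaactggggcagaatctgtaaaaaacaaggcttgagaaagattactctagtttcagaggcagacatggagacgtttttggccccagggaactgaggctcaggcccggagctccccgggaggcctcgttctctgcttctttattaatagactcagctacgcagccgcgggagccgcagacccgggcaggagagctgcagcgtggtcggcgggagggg
SLC7A1 chr13:29595639-29595938, minus strand: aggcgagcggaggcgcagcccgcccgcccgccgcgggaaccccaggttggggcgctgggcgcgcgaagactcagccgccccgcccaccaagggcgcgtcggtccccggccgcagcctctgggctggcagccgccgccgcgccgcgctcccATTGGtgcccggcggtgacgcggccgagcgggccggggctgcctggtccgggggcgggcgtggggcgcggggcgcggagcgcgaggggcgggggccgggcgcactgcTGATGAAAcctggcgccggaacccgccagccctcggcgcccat
Motifs were searched on both strands. In SCD the capitals mark CCAAT, the box bound by NF-Y, at 2 places, and no other motif searched was found. CCAAT was added to the search after the values were seen. The CPT1A window held none of the motifs searched. In SLC7A1 they mark TGATGAAA, which matches the ATF4 and CEBP composite TGATGNAA, and ATTGG, the reverse complement of CCAAT. Of the 36 called genes, 25 had at least 1 window in the RefSeq table, 41 windows in all. The nuclear receptor core AGGTCA was in 12.2% of these 41 windows and in 13.8% of all 35116, and its direct repeat with a spacer of 1 base, bound by PPAR with RXR, was in none of the 41 and in 0.0228% of all. TGATGNAA was in 2.44% against 3.62%, the E-box CACGTG in 2.44% against 7.26%, and CCAAT in 31.7% against 34.6% of all windows. The sterol element TCACNCCAC and the FOXO motif GTAAACA were in none of the 41, against 1.13% and 3.42% of all windows. A match is only a description of these letters, and AGGTCA is contained in its direct repeat.

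Sterol genes stayed under the threshold. None of 27 genes of cholesterol synthesis and uptake was called, with a median of -0.09, and none of 9 LXR targets, with a median of -0.04. HMGCS1, the cytosolic synthase that feeds sterol synthesis, measured 35.1 and 36.2 CPM with ketogenic diet against 50.8 and 30.3 CPM with standard diet. The labels thus went opposite ways, and its log2 fold change of -0.17 became 0.25 without either marrow vehicle library. DHCR7, a reductase at the end of the pathway, had -0.40 and did not pass. TM7SF2, a sterol reductase, had the highest value of the 27 genes, 0.92, and did not pass (adjusted p = 0.167 in edgeR). Of the 27, 6 had positive values.

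None of 24 genes of glycolysis and glucose uptake was called, where 0.261% of all genes tested were, and their median was -0.01. SLC2A1, the main glucose transporter of proliferating cells, measured 26.3 and 26.7 CPM with ketogenic diet against 33.5 and 37.9 CPM with standard diet. Its log2 fold change of -0.43 ± 0.13 (SE) did not pass (edgeR, adjusted p = 0.188). HK2, a hexokinase, had -0.28 and did not pass (adjusted p = 0.905 in edgeR). Of 8 genes around the glucose sensors MLX and MLXIP none was called. TXNIP, an arrestin-like protein induced by glucose, measured 325 and 332 CPM with ketogenic diet against 272 and 289 CPM with standard diet, whereas its relative ARRDC4 measured 46.3 and 53.0 CPM with ketogenic diet against 58.2 and 69.2 CPM with standard diet. Their log2 fold changes of 0.22 and -0.36 point in opposite directions and neither passed. SLC37A2, a sugar phosphate transporter, was called lower, at 30.4 and 25.1 CPM with ketogenic diet against 37.3 and 43.6 CPM with standard diet (log2 fold change -0.54 ± 0.13 SE; edgeR, adjusted p = 0.0113). In the fit of all 8 libraries it was not called, at -0.53 (adjusted p = 0.372 in edgeR) with every library kept. With 1 library left out of that fit it stood at -0.80 without either marrow vehicle library and -0.29 without either one of the liver label.

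Genes linked to ATF4, the transcription factor of the integrated stress response, had mostly positive values. The list holds amino acid enzymes and transporters along with stress factors such as ATF3 and DDIT3, and 23 of 24 members had a positive log2 fold change and 2 were called, both higher, with a median of 0.17. Over all 13784 genes tested, 7037 had a positive value and 0.174% were called higher. SLC7A1, the arginine and lysine transporter, measured 89.3 and 86.4 CPM with ketogenic diet against 74.4 and 56.1 CPM with standard diet (log2 fold change 0.43 ± 0.11 SE; edgeR, adjusted p = 0.0258). PSAT1, an enzyme of serine synthesis, measured 206 and 205 CPM with ketogenic diet against 182 and 131 CPM with standard diet (log2 fold change 0.40 ± 0.10 SE; edgeR, adjusted p = 0.0153). In both genes the gap was wider in the liver label. CHAC1, which degrades glutathione, had the largest uncalled value of the list, 0.91 (adjusted p = 0.071 in edgeR), and TRIB3 had 0.36, PHGDH 0.24 and ATF4 itself 0.17. DDIT3 was the exception in sign, at -0.41. Neither was called in the fit of all 8 libraries, with adjusted p-values of 0.108 for SLC7A1 and 0.107 for PSAT1 in edgeR. With 1 vehicle library left out of that fit, SLC7A1 stood at 0.62 without either marrow library and 0.26 without either library of the liver label, and was not called. PSAT1 stood at 0.65 without either marrow library, where it was called, and at 0.18 without either library of the liver label, where it was not. Scaling by library totals also ended both calls, with adjusted p-values of 0.0659 and 0.0564.

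Several called genes encode membrane proteins of leukocytes. FCGRT, the receptor that recycles IgG and albumin, measured 97.4 and 89.7 CPM with ketogenic diet against 55.8 and 57.0 CPM with standard diet (log2 fold change 0.73 ± 0.11 SE; edgeR, adjusted p = 6.55e-08). CD52, a small anchored glycoprotein of leukocytes, measured 22.1 and 17.5 CPM with ketogenic diet against 11.5 and 10.4 CPM with standard diet (log2 fold change 0.86 ± 0.15 SE; edgeR, adjusted p = 3.22e-05). Both were higher in both ketogenic libraries than in both standard ones, which their choice by the diet test favours. MS4A3, a protein of granulocyte precursors, measured 39.7 and 52.0 CPM with ketogenic diet against 29.7 and 28.2 CPM with standard diet (log2 fold change 0.64 ± 0.12 SE; edgeR, adjusted p = 0.000257). It was the only called member among 12 primary granule genes, whose median was 0.17. MPO, the myeloperoxidase, measured 39.1 and 46.1 CPM with ketogenic diet against 28.6 and 44.0 CPM with standard diet and had a log2 fold change of 0.26 that did not pass.

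Other surface genes were lower with ketogenic diet. CSF1R, the receptor for macrophage colony-stimulating factor, measured 19.5 and 20.2 CPM with ketogenic diet against 27.0 and 32.0 CPM with standard diet (log2 fold change -0.56 ± 0.13 SE; edgeR, adjusted p = 0.0148). ITGAL, the alpha chain of the integrin LFA-1, measured 231 and 201 CPM with ketogenic diet against 289.9 and 269 CPM with standard diet (log2 fold change -0.38 ± 0.09 SE; edgeR, adjusted p = 0.0216). SDC2, the heparan sulphate proteoglycan syndecan-2, measured 227 and 226 CPM with ketogenic diet against 311 and 312 CPM with standard diet, a nearly equal gap in both labels (log2 fold change -0.46 ± 0.09 SE; edgeR, adjusted p = 0.000568). Of 17 tested monocyte and macrophage genes CSF1R alone was called, and the list's median was -0.21. Its median single-library log2 ratio was -0.04 in marrow and -0.43 in the liver label. Only 4 of the 17 had positive values. ITGAM and CD86 had -0.34 and -0.35, whereas LYZ and MNDA had 0.21 and 0.50, and none of these passed. The largest falls, FCN1 (-2.76), S100A9 (-2.35) and S100A8 (-1.57), did not pass either. They rest on few counts, at 1.89 CPM or less in every vehicle library. None of 11 MHC class II genes was called, although 10 of them had negative values and the median was -0.23. HLA-DRA measured 122 and 94.8 CPM with ketogenic diet against 148 and 113 CPM with standard diet (log2 fold change -0.26; edgeR, adjusted p = 0.642). Summed macrophage markers, given above, were at 9.997 CPM in the ketogenic library of the liver label, against 13.55 CPM in the standard one, and their part in these values was not tested. In the fit of all 8 libraries MS4A3, CSF1R and ITGAL were not called, with every library kept. SDC2 and CD52 were called there, and SDC2 lost its call without any 1 vehicle library and CD52 without either marrow one. FCGRT kept its call in 14 of 15 alternative settings.

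**Figure D2:**
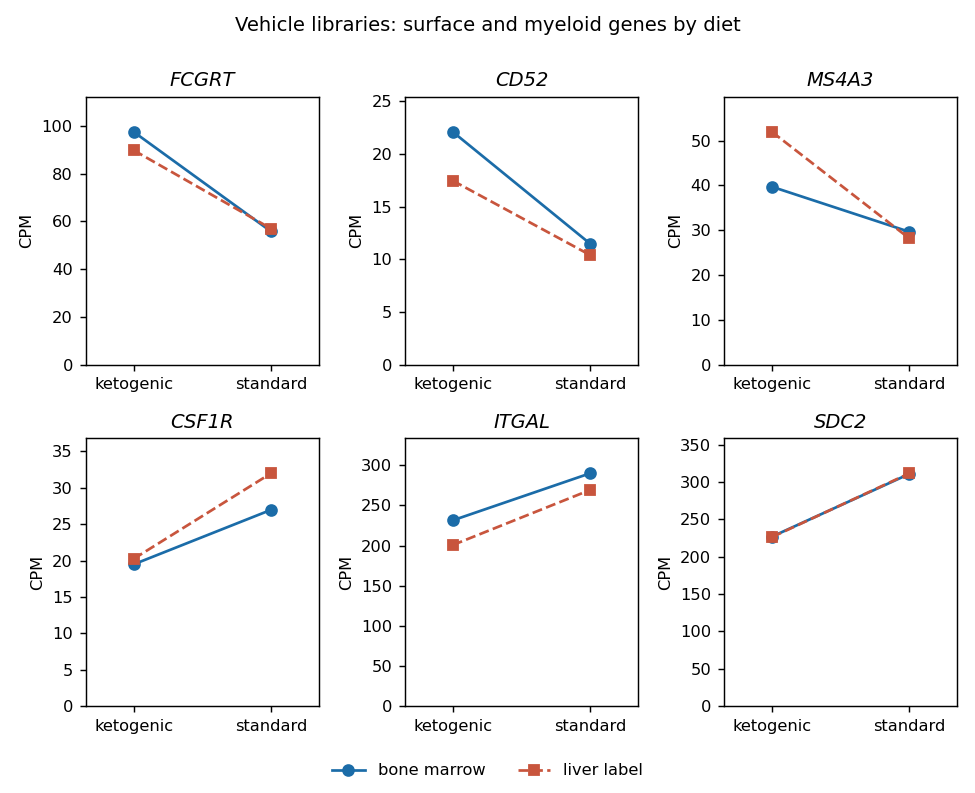
Abundance in CPM (vertical axes, from 0) of 6 surface and myeloid genes in the 4 vehicle libraries, ketogenic left of standard; each point is 1 library, circles mark bone marrow and squares the liver label, and lines join libraries of a label. The upper genes were higher and the lower ones lower with ketogenic diet in both labels, and the SDC2 lines lie on each other at 227 and 226 CPM with ketogenic diet, against 311 and 312 CPM with standard diet.

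Other called genes had less in common. IMPA2, an inositol monophosphatase, measured 55.4 and 64.1 CPM with ketogenic diet against 30.3 and 42.3 CPM with standard diet (log2 fold change 0.73 ± 0.12 SE; edgeR, adjusted p = 7.00e-07). ST14, a membrane serine protease, measured 107 and 78.5 CPM with ketogenic diet against 59.5 and 65.4 CPM with standard diet (log2 fold change 0.56; edgeR, adjusted p = 0.000257). ACPP, an acid phosphatase, had 0.77, LRP5, a Wnt co-receptor, had 0.77, MCEMP1, a myeloid membrane protein, had 0.76, TNKS1BP1 had 0.66 and C1orf162 had 0.59. TGFBR1, the type I receptor for TGF-beta, had -0.44, the GABA receptor subunit GABRA4 had -0.50 and the lysophosphatidic acid receptor LPAR6 had -0.79. The remaining calls were C12orf75 (0.47), the inflammasome gene NLRC4 (1.10), the antisense gene AC091045.2 (1.62), LINC01819 (-0.75) and IGFBP2 (1.81), an IGF-binding protein with 36 and 29 counts with ketogenic diet against 9 and 16 with standard diet. These 5, with ECH1 and ST14, were named after their values were seen. In the fit of all 8 libraries, with every library kept, TNKS1BP1, TGFBR1, GABRA4, LPAR6, C12orf75, NLRC4, LINC01819 and IGFBP2 were not called. IMPA2, ST14, ACPP, LRP5, MCEMP1, C1orf162 and AC091045.2 were called there and lost their calls without either marrow vehicle library, as MCEMP1 and AC091045.2 did without either one of the liver label. Exons of ACADVL, CD52, GABRA4, ITGAL, C12orf75 and AC091045.2 overlap a gene on the other strand, and whether counting used strand is not stated in the sources used here, so their counts are less certain. Exons of ACAA2, ECH1 and MCEMP1 overlap a gene on their own strand.

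Lists tied to growth and to the drug target held no called gene. Only 0.261% of all genes tested were called, and at that share lists of this size would mostly hold none. FLT3 measured 469 and 396 CPM with ketogenic diet against 547 and 358 CPM with standard diet, a log2 fold change of -0.04 that was 0.15 without either marrow vehicle library. MYC had 0.24 and did not pass (adjusted p = 0.767 in edgeR). None of 20 STAT5 and FLT3 targets (median 0.00), 18 stem and leukaemia factors (0.00), 37 proliferation genes (0.04), 23 replication-dependent histones (0.09), 27 ribosome biogenesis genes (0.05) and 71 cytosolic ribosomal protein genes (0.00) was called. The same held for 48 nuclear subunits of oxidative phosphorylation (median 0.01), 18 chaperones of the endoplasmic reticulum (-0.02), 19 NRF2 and glutathione genes (-0.08), 13 hypoxia-induced genes (-0.02) and 31 interferon-response genes (-0.02). Also uncalled were 25 immediate early genes (0.01), 14 NF-kB targets (-0.05) and 29 lysosomal and autophagy genes (-0.03). These medians lay between -0.08 and 0.09, and a count of 0 does not show that a list did not change.

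**Figure D3:**
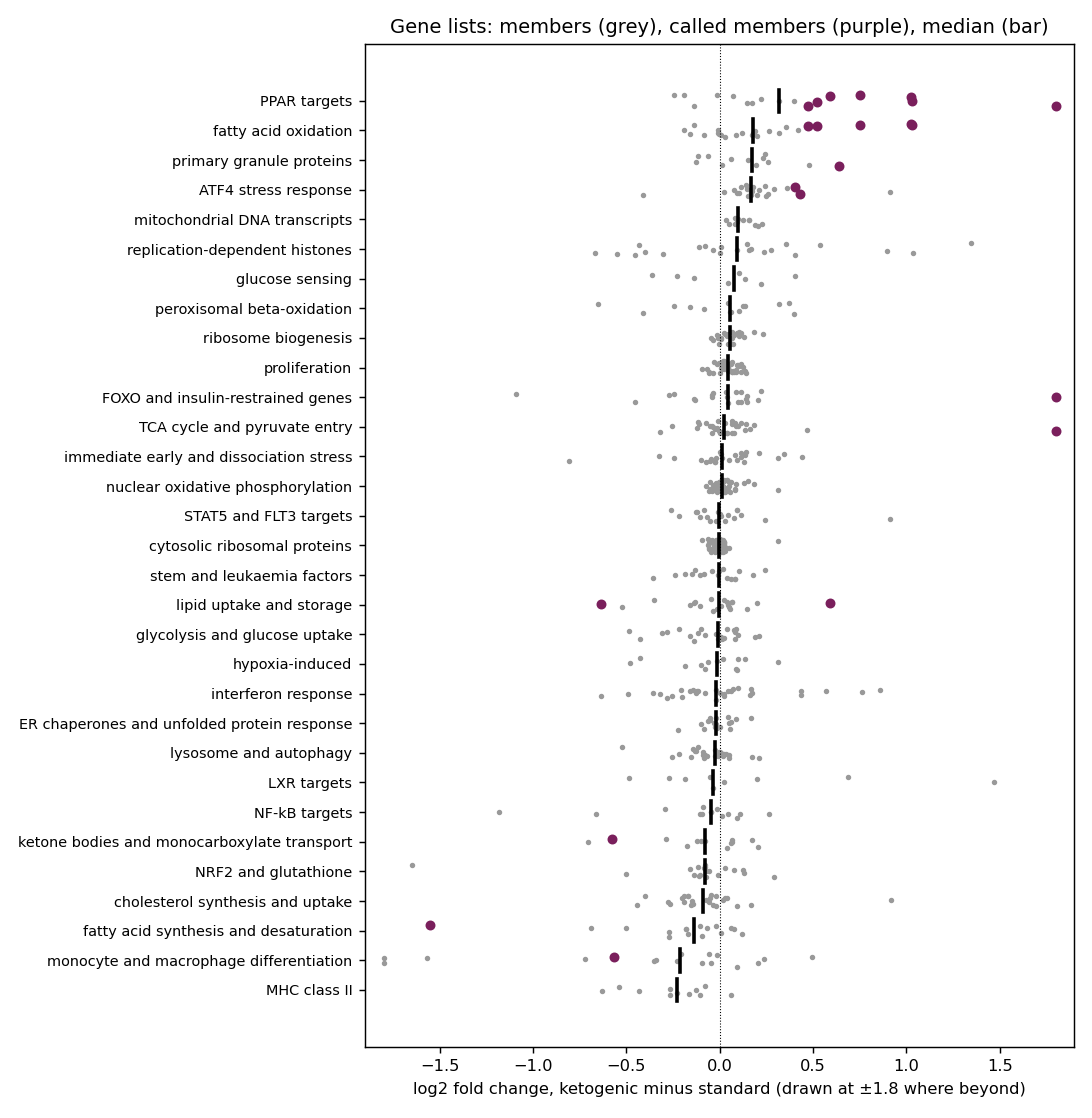
Log2 fold change with ketogenic diet, ketogenic minus standard, in the vehicle libraries (horizontal axis) for tested members of 31 gene lists, sorted by median; grey points are members not called, purple points called members and bars the list medians, and values beyond 1.8 are drawn at 1.8. PPAR targets (median 0.32) and fatty acid oxidation (0.18) stand at the top and MHC class II (-0.23) at the bottom.

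Within single pairs, which allow no test, few genes differed by 2-fold or more where the pair averaged 4 or more in log2 CPM. In marrow 2 of 6967 genes (0.0287%) were higher with ketogenic diet, CPT1A and SLC25A20, and 1 (0.0144%), SCD, was lower. In the liver label none of 6929 genes (0%) was higher and 1 (0.0144%), again SCD, was lower. The highest marrow ratios were CPT1A at 2.74 (95% counting interval 2.51 to 2.99), SLC25A20 at 2.08 (1.898 to 2.28), ACPP, MTCO1P40 and IMPA2, and the lowest were SCD at 0.279 (0.250 to 0.310), GABRA4, BDH1, CD38 and RGS2. MTCO1P40 is a nuclear copy of a mitochondrial gene whose reads may be shared with the original. In the liver label the highest included SLC25A20 at 1.99 (1.75 to 2.27), MS4A3, COX11 and the fructose transporter SLC2A5, and the lowest included SCD at 0.427 (0.378 to 0.482), SLC37A2, CES1P1 and IQSEC1. All 36 called genes had the same direction in both labels, which their choice by the joint test favours, and 24 of them had the larger log2 ratio in marrow. CD38 went opposite ways, at 15.4 CPM with ketogenic against 23.6 CPM with standard diet in marrow, and 19.6 CPM with ketogenic against 13.6 CPM with standard diet in the liver label.

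**Figure D4:**
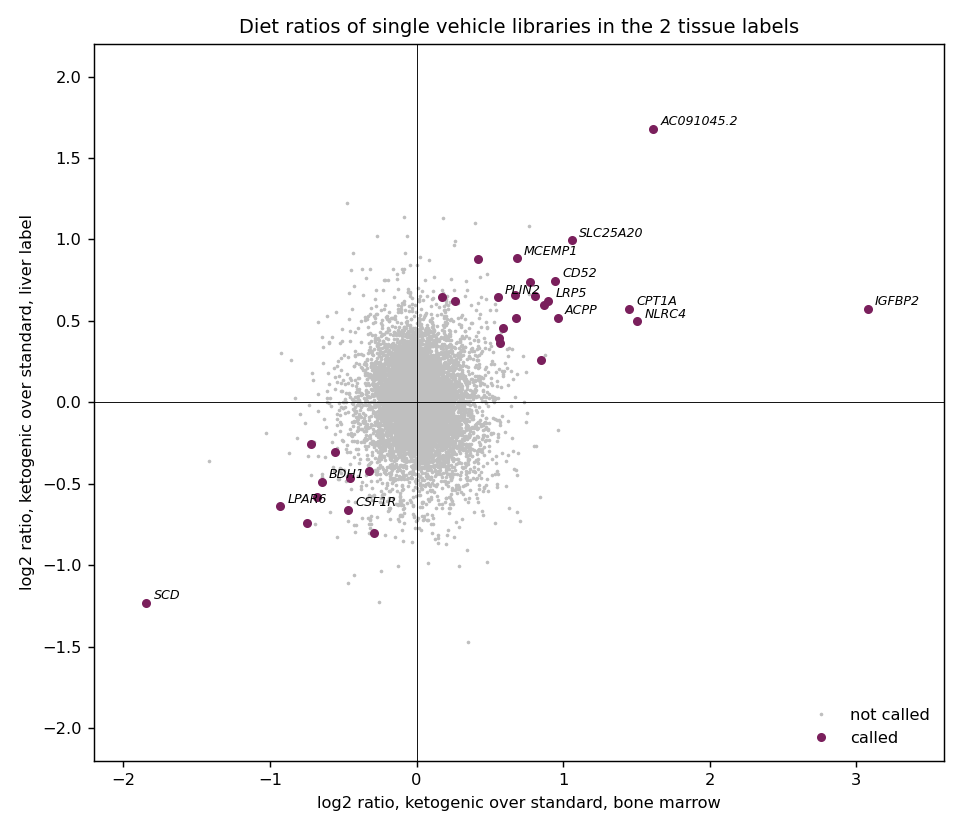
Log2 ratio of the ketogenic over the standard vehicle library in bone marrow (horizontal axis) against the same ratio in the liver label (vertical axis), for genes averaging 2 or more in log2 CPM and for called genes; grey points are not called, purple points are called, and PDK4 lies outside the axes. SCD is farthest to the lower left, and CPT1A lies farther out in marrow than in the liver label.

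A difference of the diet effect between labels was tested with all 8 libraries, averaging over the drug, since the 4 vehicle libraries leave no spread for it. Of 14749 genes, 48 (0.325%) passed, 40 (0.271%) with a more positive and 8 (0.0542%) with a more negative diet effect in marrow than in the liver label, and 1639 had an unadjusted p under 0.05. CPT1A was the only one of the 36 called genes among them, with a difference of 0.67 ± 0.13 (SE, log2, marrow minus liver label; edgeR, adjusted p = 0.0332). SCD had -0.68, a larger fall in marrow that did not pass (adjusted p = 0.0687 in edgeR). Of 13 transcripts of the mitochondrial genome, 10 passed, all positive. Their median log2 ratio with ketogenic diet was 0.38 in marrow and -0.18 in the liver label among the vehicle libraries, and none was called in the joint fit. MKI67, a marker of cycling cells, measured 101 CPM with ketogenic against 72.2 CPM with standard diet in marrow, and 115 CPM with ketogenic against 141 CPM with standard diet in the liver label. Its difference was 0.75 (edgeR, adjusted p = 0.000934), while its joint log2 fold change was 0.09 and became -0.30 without either marrow vehicle library. Tissue label and any batch marked by its code cannot be told apart in any of these differences.

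The same diet contrast was then read in the 4 gilteritinib libraries, which share no library with the vehicle pairs. Fitted alone in the same way, they gave 1745 called genes of 14229 (12.3%), 933 higher (6.56%) and 812 lower (5.71%). Of the 36 genes called without drug, 35 were tested there, all 35 had the same direction, 27 were called and none was called the opposite way. Across the 13574 genes tested in both fits 55.5% had the same direction. SCD measured 7.87 and 13.9 CPM with ketogenic diet and gilteritinib in marrow and the liver label, against 24.4 and 25.4 CPM with standard diet and gilteritinib (log2 fold change -1.19 ± 0.14 SE; edgeR, adjusted p = 1.54e-13). CPT1A had 0.74, SLC25A20 0.77, ACAA2 0.86, ACADVL 0.58 and ECH1 0.63 there, and each was called. PDK4 had 23 and 29 counts with ketogenic diet against 0 and 1 with standard diet under gilteritinib. It is among the 35, and it entered that test, too, only through its ketogenic libraries. Genes not called there included ACPP (0.07), GABRA4 (-0.27), CSF1R (-0.14), SLC7A1 (0.03), PSAT1 (0.23), C12orf75 (0.10) and AC091045.2 (0.36), and IGFBP2 was too low to test. For none of the 36 genes did the difference between the vehicle and gilteritinib effects pass, and ACPP came nearest at 0.69 (adjusted p = 0.0918 in edgeR).

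**Figure D5:**
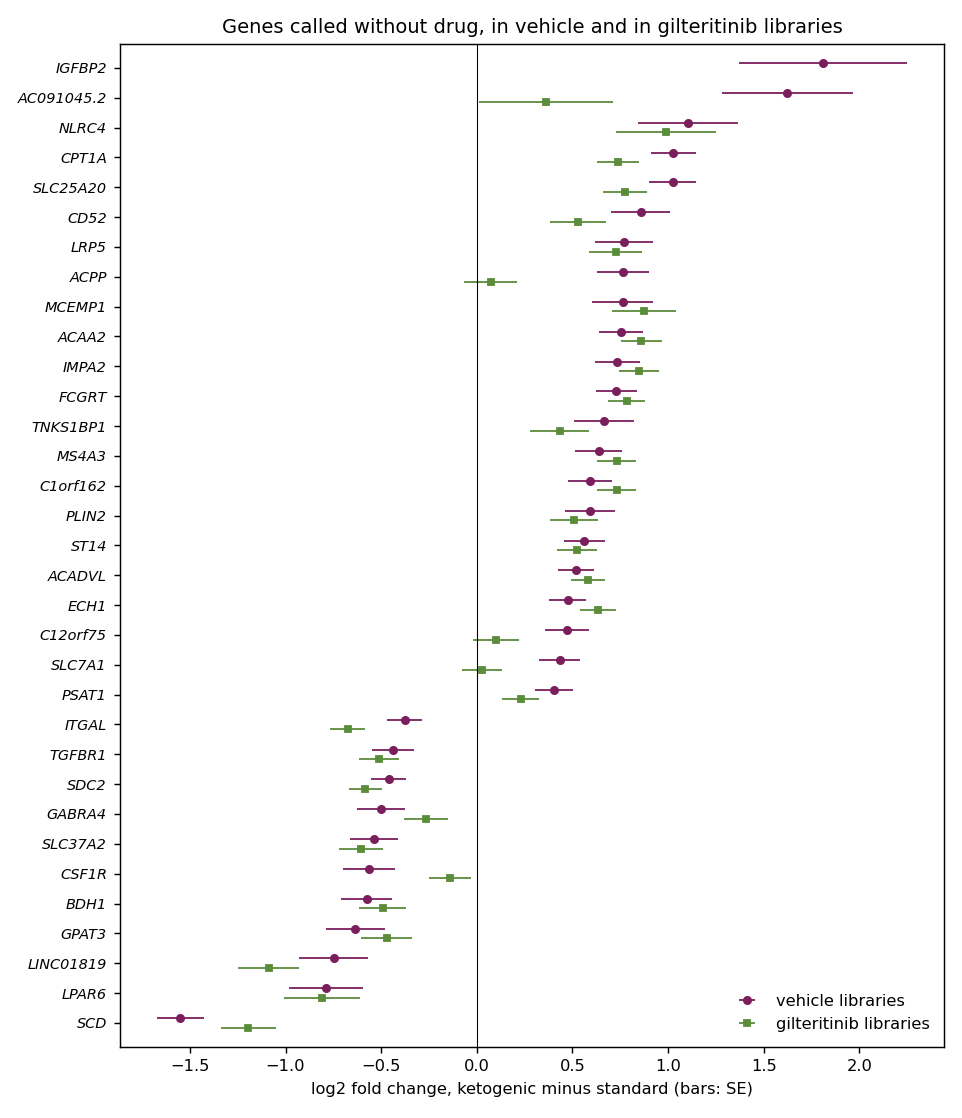
Log2 fold change with ketogenic diet, ketogenic minus standard (horizontal axis), of 33 of the 36 genes called without drug, as circles for the vehicle libraries and squares for the gilteritinib libraries, with bars for SE; PDK4, at 4.72 and 5.26, is among those left out, and IGFBP2 was not tested under gilteritinib. Direction was the same for each gene tested in both.

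Over all genes, the diet effect differed between vehicle and gilteritinib for 108 of 14749 genes (0.732%), with a more positive effect under vehicle for 29 (0.197%) and a more negative one for 79 (0.536%), and 1755 had an unadjusted p under 0.05. Scaled by library totals the effect under vehicle was more positive for 41 and more negative for 36. ARRDC4 had a diet effect of -0.36 under vehicle and -0.97 under gilteritinib, a difference of 0.61 (edgeR, adjusted p = 0.0429). HLA-DRA had -0.26 under vehicle and -0.79 under gilteritinib, a difference of 0.52 (adjusted p = 0.0430 in edgeR), and MPO had 0.26 under vehicle and 0.92 under gilteritinib, a difference of -0.66 (adjusted p = 0.0396 in edgeR). For cytosolic ribosomal proteins the median diet effect was 0.00 under vehicle, with none of 71 called, and 0.22 under gilteritinib, with 40 of 72 called higher, and 8 of the 72 passed the test of the difference. In MHC class II genes none of 11 was called under vehicle and 7 of 11 were called lower under gilteritinib, and 1 gene of the list passed the test of the difference. Without either vehicle library of the liver label the count of differences was 7 to 9.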

How the data were processed

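RNA of 8 libraries was sequenced as paired ends from messenger RNA libraries, per the labels' protocols. The authors deposited raw gene counts for 60676 identifiers, with no normalization. The aligner was STAR 2.7.3a with build GRCh38, per the submitters' processing notes. The sources used here do not give the counting program, annotation or strand setting, or say if mouse reads were removed. GENCODE 29 (GRCh38) gave the coordinates and matched 96.4% of identifiers.

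The labels gave each library its tissue label, drug and diet. Genes reaching 10 counts in 2 or more of the 4 vehicle libraries were scaled with TMM factors and tested with edgeR 4.0.16 (R 4.3.3; robust, bias-adjusted quasi-likelihood) for diet with tissue label as the block, which leaves 1 residual degree of freedom. The pairing comes from the labels, where a code in the title is shared by both libraries of a pair, and no replicate numbers are given. The threshold was a Benjamini-Hochberg adjusted p of 0.05, two-sided. CPM were counts over library totals times TMM factors of all 8 libraries. Differences between drugs and between labels were fitted on all 8 libraries, with 2 and 1 residual degrees of freedom. The gilteritinib libraries were also fitted alone, a choice made after the data were seen. Single pairs carry exact conditional 95% counting intervals, which cover counting error only, as does the floor of 3 counts for a count of 0.

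The members, gene lists and tests were chosen with earlier results of these data known. Named genes were up to 14 called genes with the largest rise and up to 14 with the largest fall. These averaged 2 or more in log2 CPM and kept their sign between labels (clone names, LINC and antisense genes, small RNAs and pseudogenes aside, by name and GENCODE type). Only 12 genes were called lower, so every fall that met these conditions was taken. Added to them were up to 4 called members of each of 31 pathway lists and 26 genes always reported. The 5 highest and lowest ratios in each label and the 5 largest differences of each sign between drugs were also named. Other list members and called genes were named after their values were seen. A few named genes are not reported here, but counts and medians include them. Alternatives were DESeq2 1.42.0, limma-voom (limma 3.58.1), the older quasi-likelihood fit, other scalings and count filters, no block, all 8 libraries in the fit, counts thinned to the smallest library, and each library left out. In that last setting the lone library of a pair was assumed to vary like the others. Leaving out transcripts of the mitochondrial genome was added after the data were seen. On simulated counts with 1 dispersion, the test of diet without drug, on 13518 genes, found 69.4% of simulated 1.5-fold changes and 80.4% of 2-fold ones, with 3.31% false calls.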

Additional observations from a re-analysis of the deposited data

Results flagged for a closer look

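The diet effect differed between vehicle and gilteritinib libraries for 108 genes, by a test of the difference itself with all 8 libraries (edgeR, Benjamini-Hochberg adjusted). Differences are log2, vehicle minus gilteritinib. Among genes always reported, ARRDC4 had 0.61, HLA-DRA 0.52 and MPO -0.66. The 5 largest positive differences were STAT4 at 2.56, a factor of interleukin signalling, TM7SF2 at 1.63, a sterol reductase, GOLGA8R at 1.46, NFAT5 at 1.30, the factor of osmotic stress, and ATG9A at 1.13, an autophagy protein. STAT4 had 42 and 54 counts with ketogenic diet in marrow and the liver label, against 60 and 16 with standard diet, under vehicle. Under gilteritinib it had 7 and 17 counts with ketogenic diet, against 15 and 58 with standard diet. The 5 largest negative ones were AC073957.3 at -3.25, AL049872.1 at -2.64, the immunoglobulin genes IGLC3 at -2.25 and JCHAIN at -2.17, and HMGN2P46 at -1.38. AC073957.3 rests on few counts. Under vehicle it had 5 and 8 with ketogenic diet in marrow and the liver label, against 32 and 11 with standard diet. Under gilteritinib it had 18 and 24 with ketogenic diet, against 2 and 7 with standard diet. JCHAIN measured 1.76 and 1.68 CPM with ketogenic diet and vehicle, against 4.42 and 1.89 CPM with standard diet and vehicle. Under gilteritinib it measured 4.48 and 20.2 CPM with ketogenic diet, against 1.37 and 9.12 CPM with standard diet.

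The diet effect differed between marrow and the liver label for 48 genes, averaged over the drug and tested the same way. CPT1A, with 0.67, and MKI67, with 0.75 (log2, marrow minus liver label), were among them. So were 10 of the 13 transcripts of the mitochondrial genome, from MT-CO2 at 0.37 to MT-ATP8 at 0.88, while MT-CO3, MT-ND3 and MT-ND6 did not pass.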

How the results depend on the processing

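For diet without drug, 36 genes were called. The count was 6 with DESeq2, 13 with no count filter, 4 with no replicate block (the tissue label left out, which ends the pairing), and 20 with all 8 libraries, and 9 to 19 with 1 vehicle library left out of that fit. It was between 33 and 38 under limma-voom, the older quasi-likelihood fit, both other scalings, the stricter count filter, thinning, and without transcripts of the mitochondrial genome. SCD and SLC25A20 kept their calls in 15 of 15 alternatives, and ACAA2 and FCGRT in 14. None of the 34 called genes followed through the alternatives changed direction. With 1 vehicle library left out, the vehicle effect rests on the pair of the other label alone. All 36 called genes had the same direction in both labels, so those settings could not reverse one. The uncalled genes followed in this way were drawn from those always reported. Of those followed and reported here, 4 changed sign with 1 library left out. Their ranges were -0.40 to 0.0351 for FASN, -0.53 to 0.25 for HMGCS1, -0.22 to 0.15 for FLT3 and -0.30 to 0.49 for MKI67. Other uncalled genes named here were not followed, and some of them, such as CD38 and RGS2, had opposite directions in marrow and the liver label. The 108 differences between drugs became 33 with DESeq2 and 7 to 113 with 1 library left out. The 48 differences between labels became 17 with DESeq2 and 164 with limma-voom. The cause of these changes was not tested. With 1 library per group, depths of 13605936 to 33611830 counts and prior degrees of freedom infinite for 90% of genes, adjusted p-values rest on the shared spread. Genes under 10 counts in most libraries, such as ANGPTL4, could not be tested at this depth.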

Other observations

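Markers of other cells were low or rested on single genes in the vehicle libraries. Lymphoid markers summed to 86.3 and 91.5 CPM with ketogenic diet in marrow and the liver label, against 71.7 and 90.2 CPM with standard diet. Most of this was NKG7, with up to 79.6 CPM, and MS4A1, KLRD1 and TRBC1 were at 0 in all 4 libraries. Stromal and endothelial markers summed to 233 and 221 CPM with ketogenic diet, against 239 and 215 CPM with standard diet. Most of this was PECAM1, with up to 227 CPM, and CDH5, KDR, CXCL12 and STAB2 were at 0. Megakaryocyte markers summed to 8.21 and 10.9 CPM with ketogenic diet, against 11.4 and 8.89 CPM with standard diet, and PF4 and PPBP were at 0. Erythroid markers had no count in either ketogenic library, against 4 counts and 1 count in the standard libraries of marrow and the liver label.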
